A study of Homo sapiens with 24 samples.

Results

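The genes described here are 45 genes of protein folding, N-glycosylation and stress signalling in the endoplasmic reticulum (ER). They were taken as a list of symbols that holds the calnexin cycle, the oligosaccharyltransferase, the translocon, other ER chaperones, ER-associated degradation and the transducers and targets of the stress response. The list was asked about because CANX and MLEC rose after a miR-638 mimic, and the question was whether other ER genes rose with them. Of the 45 genes, 43 had a probe under their name, out of 20046 genes with a named probe on the array. HERPUD1 and SEC61G had no probe under those symbols, and the PDIA3 probe was not above background on enough arrays to be tested. The other 42 were tested in both experiments, among 12646 tested genes after mimics and 13101 after pulldown. CANX and MLEC each had 2 probes, and both were kept; every other gene was represented by its probe of highest mean signal.

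All samples were of DU145, a cell line established from a human prostate cancer. In the first experiment the cells received a mimic, a synthetic double-stranded microRNA: the non-targeting control NC1, the non-targeting control NC2, or miR-638, with 4 arrays each, and total RNA was hybridised. In the second experiment the cells received a mimic carrying biotin (NC1, NC2, miR-638 or miR-17), with 3 arrays each, and the RNA captured with the biotin tag was hybridised. The labels give neither a dose nor a time, and nothing says that replicates came from separate cultures, so p-values measure the spread between these arrays, which may be technical. No array of uncaptured RNA from the pulldown experiment was used here, and a pulldown value is the level in captured RNA compared with captured RNA from another mimic. In bulk RNA, fewer cells of a kind and less RNA per cell cannot be told apart.

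Each array held 47323 probes, with a mean signal of 300.0 to 463 in the mimic experiment and 428 to 629 in the pulldown experiment. Between 20613 and 22610 probes were detected per array. The number of arrays limits the precision. The epithelial markers KRT8, KRT19, EPCAM and CDH1 were detected on 12 of 12 arrays in both experiments, KRT18 on 7 mimic and 9 pulldown arrays, and the luminal prostate genes KLK2, KLK3 and TMPRSS2 on 0. Of the other markers, CD3E, VWF and LUM were detected on 0 arrays and PTPRC on at most 2, while CD14 was detected on 12 of 12 in both experiments and the collagens COL1A1 and COL1A2 on 10 to 12. The NC1 and NC2 pulldown columns carry each other's names in the authors' value table and in their signal table. Pulldown values here follow the names in the signal table, so the direction of NC2 against NC1 in the pulldown depends on which table is right. A comparison with the mean of both controls is the same either way.

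Secretory and membrane proteins enter the ER through the SEC61 channel, receive an N-linked glycan from the oligosaccharyltransferase, and fold with help of chaperones. After trimming of the glycan by glucosidase II, calnexin and calreticulin hold the unfinished protein until it has folded, and malectin, the product of MLEC, binds a glycan form from an earlier trimming step. When unfolded protein accumulates, ATF6, IRE1 and PERK signal to the nucleus. ATF6 and spliced XBP1 raise chaperone and degradation genes such as HSPA5, HYOU1, DNAJB9 and EDEM1, and PERK acts through ATF4 on DDIT3, TRIB3, ASNS and CHAC1.

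The mature sequences of the microRNAs are shown because they are the reagents whose effects are compared. They are RefSeq records on GRCh38.p14, with the seed (bases 2 to 8) in capitals. hsa-miR-638 lies at chr19:10718419-10718443 and hsa-miR-17-5p at chr13:91350618-91350640, both on the plus strand.
hsa-miR-638: aGGGAUCGcgggcggguggcggccu
hsa-miR-17-5p: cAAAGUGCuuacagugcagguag
The seeds differ, and miR-638 is 80.0% G or C against 47.8% for miR-17-5p. The labels do not say which arm of miR-17 was used, and the 5p arm is shown. The sequences of NC1 and NC2 were not used here.

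After the miR-638 mimic, CANX and MLEC rose about 2-fold on both of their probes, and EDEM3 and MANF rose less. The chaperone HSPA5 and the stress genes DDIT3, TRIB3, ASNS and CHAC1 did not pass the test. CANX, the membrane chaperone calnexin, read 8.51, 8.53, 8.49 and 8.46 with NC1 on its brighter probe (log2 normalised signal, replicates 1 to 4). It read 8.75, 8.64, 8.93 and 8.71 with NC2, and 9.84, 9.91, 9.67 and 9.64 with miR-638. Every miR-638 array was above all 8 control arrays. The difference from the mean of both controls was 1.14 on the log2 scale, a 2.20-fold increase (SE 0.08, 95% interval 0.97 to 1.30, limma adjusted p = 4.53e-05). The second CANX probe gave 1.15 (SE 0.09, limma adjusted p = 5.07e-05 in a fit of all probes). The increase was 1.27 against NC1 alone and 1.01 against NC2 alone.

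MLEC, the ER lectin malectin, read 10.43, 10.22, 10.39 and 10.47 with NC1 on its brighter probe. It read 9.88, 10.04, 10.25 and 10.15 with NC2, and 11.37, 11.09, 11.17 and 11.14 with miR-638. Again every miR-638 array was above all controls. The difference was 0.96, a 1.95-fold increase (SE 0.08, 95% interval 0.78 to 1.14, limma adjusted p = 0.000125), and 0.98 on the second probe (SE 0.07). It was 0.81 against NC1 alone and 1.11 against NC2 alone. CANX and MLEC passed the test with any single array left out, where CANX stayed between 1.09 and 1.18 and MLEC between 0.90 and 1.00.

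**Figure D1:**
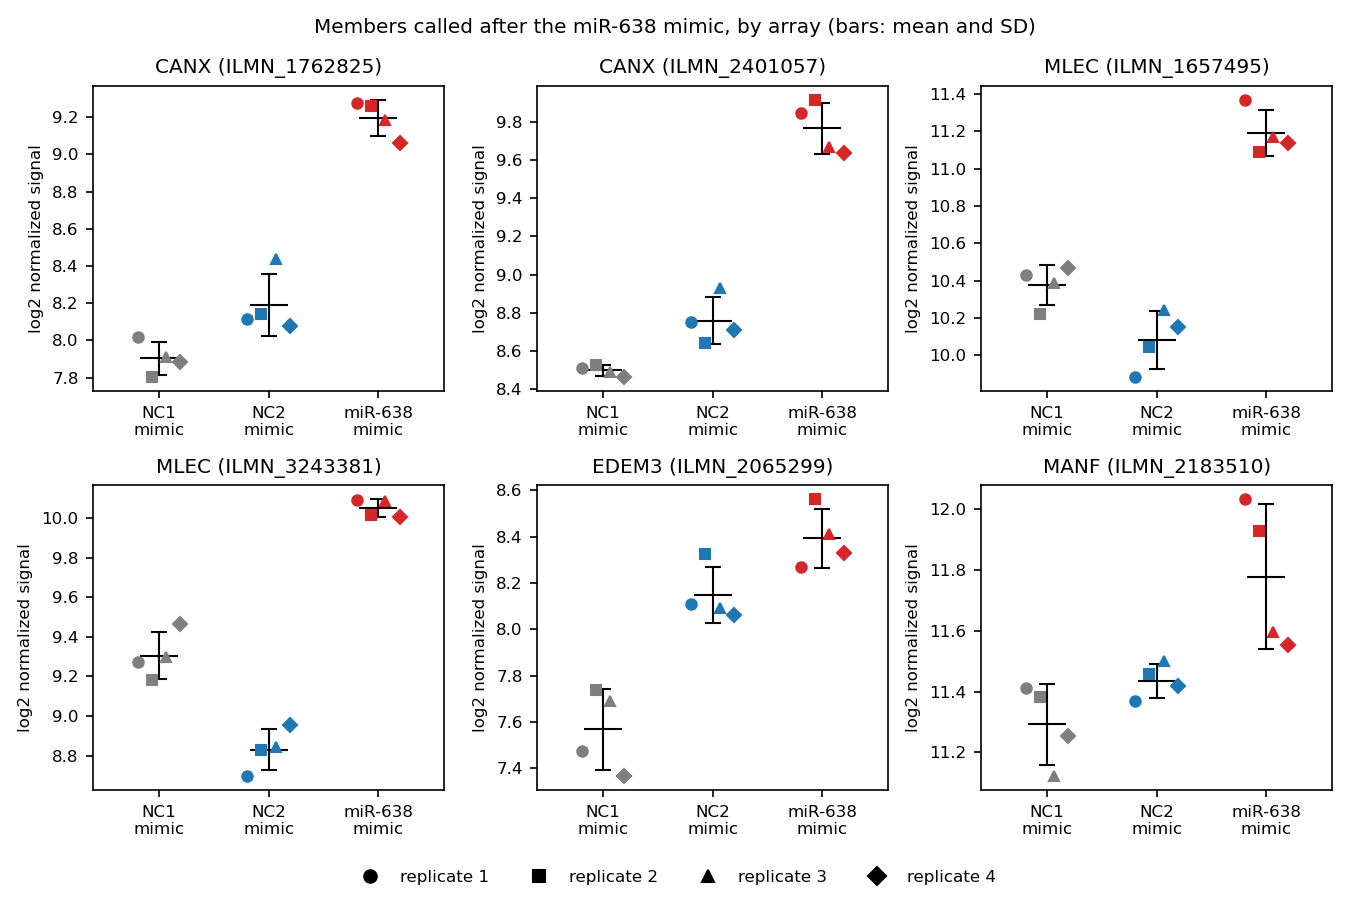
Log2 normalised signal of the members that passed the test after the miR-638 mimic, by mimic group, for each probe of CANX and MLEC and the tested probe of EDEM3 and MANF; symbols are replicates, horizontal bars the mean and vertical bars the SD of 4 arrays. For CANX, MLEC and MANF the 4 miR-638 arrays lie above all 8 control arrays, while EDEM3 overlaps NC2. Each panel has its own axis, which does not start at 0, and levels are not comparable between probes.

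EDEM3, which trims mannose from misfolded glycoproteins on their way to degradation, read 7.48, 7.74, 7.69 and 7.37 with NC1. It read 8.11, 8.33, 8.09 and 8.06 with NC2, and 8.27, 8.56, 8.41 and 8.33 with miR-638. The miR-638 arrays were above all NC1 arrays and overlapped NC2. The difference from both controls was 0.54 (1.45-fold, SE 0.10, limma adjusted p = 0.0101). It was 0.82 against NC1 alone (limma adjusted p = 0.0014) and 0.25 against NC2 alone (limma adjusted p = 0.228). Without miR-638 replicate 2 the adjusted p against both controls was 0.0546. With the replicate number as a block in the fit, the difference from NC2 alone passed the test (limma adjusted p = 0.0257).

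MANF, a secreted ER stress-responsive protein that binds HSPA5, read 11.41, 11.38, 11.12 and 11.25 with NC1. It read 11.37, 11.46, 11.50 and 11.42 with NC2, and 12.03, 11.93, 11.60 and 11.55 with miR-638. The miR-638 arrays were all above the controls, with replicates 1 and 2 higher than 3 and 4. The difference was 0.41 (1.33-fold, SE 0.09, limma adjusted p = 0.0343). This call was lost with 7 of the 12 arrays left out singly (NC1 replicates 3 and 4, NC2 replicates 1, 2 and 4, miR-638 replicates 1 and 2), with adjusted p from 0.0249 to 0.138 over all 12. It was also lost under median scaling (adjusted p = 0.0776), without the detection filter (0.0504), in the authors' values (0.109), with array weights (0.0742) and against NC2 alone (0.0847). MANF was called within replicates 1 and 2 (limma adjusted p = 3.85e-06) and within replicates 3 and 4 (0.0368). With the replicate number as a block in the fit, it passed against NC1 alone and NC2 alone (limma adjusted p = 0.000146 and 0.00207).

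Over the whole list, 4 of 42 members were higher, 0 were lower and 38 did not pass the test, while 8 had an unadjusted p below 0.05 in limma. Among all 12646 genes 2.00% were called higher and 1.34% lower (253 and 169 genes; 150 and 35 under median scaling). CANX and MLEC, which had led to the question, are among the 4. The median log2 difference was 0.05 for the members and -0.00 for all genes, and the members ran from -0.19 to 1.14. When the replicate number was taken as a block, 7 members were higher and 2 lower, against 10.1% higher and 9.10% lower among all genes. The members called only with the block, and the uncalled members named below, were named after their values were seen. XBP1, the factor spliced by IRE1, differed by 0.32 (adjusted p = 0.293, and 0.00078 with the block), the translocon subunit SSR1 by 0.20 (0.451 and 0.0276) and the catalytic subunit STT3B by 0.19 (0.163 and 0.0318). Calreticulin, CALR, differed by -0.19 (0.528 and 0.031) and the channel subunit SEC61B by -0.14 (0.281 and 0.0439). XBP1 and STT3B differed by 0.07 and -0.06 from NC1 alone and by 0.56 and 0.44 from NC2 alone, where they passed the test (limma adjusted p = 0.0496 and 0.00413). The oligosaccharyltransferase subunit DDOST differed by -0.02 from NC1 alone and by 0.29 from NC2 alone, where it passed too (limma adjusted p = 0.0485).

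By role, 2 of 6 calnexin-cycle members were higher, beside 2.00% of all genes. These were CANX and MLEC, whose rise had led to the list, so this count is no separate result. The other 4, CALR, UGGT1, GANAB and PRKCSH, were not called and lay between -0.19 and 0.11. UGGT1, which re-glucosylates unfinished glycoproteins, differed by -0.17 (95% interval -0.36 to 0.02). Of the 7 oligosaccharyltransferase subunits 0 passed the test against both controls without the block, with differences from -0.07 to 0.19. Of the 5 translocon members 0 passed, from -0.14 to 0.20. With the block STT3B was higher among the former, and SSR1 was higher and SEC61B lower among the latter, at the values given above. Of 12 other chaperones and folding enzymes 1, MANF, was higher. HSPA5, the ER Hsp70 and the usual marker of the stress response, differed by 0.06 (95% interval -0.42 to 0.54, and adjusted p = 0.479 with the block, where the SE fell from 0.22 to 0.05). HSP90B1 differed by 0.09 (-0.07 to 0.25), SDF2L1 by 0.10 (-0.09 to 0.30) and DNAJB9 by -0.19 (-0.35 to -0.03, limma adjusted p = 0.234). Within replicates 1 and 2 SDF2L1 (0.27) and SSR1 (0.34) were called higher (limma adjusted p = 0.0241 and 0.00336). Within replicates 3 and 4 they differed by -0.06 and 0.06 (limma adjusted p = 0.749 and 0.71). Of 5 degradation genes 1, EDEM3, was higher.

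Of 4 stress sensors and factors and 3 tested targets, 0 passed the test without the block, and with it XBP1 was higher, as given above; within replicates 1 and 2 XBP1 differed by 0.46 (limma adjusted p = 5.14e-05) and within replicates 3 and 4 by 0.17 (0.191). DDIT3, which encodes CHOP, differed by 0.06 (95% interval -0.16 to 0.28) and ATF4 by 0.01 (-0.17 to 0.19). ATF6 differed by -0.01 (-0.17 to 0.15). TRIB3, a kinase-like target of CHOP and ATF4, differed by -0.11 (-0.56 to 0.33), and CHAC1, which degrades glutathione, by 0.05 (-0.44 to 0.53). The intervals of HSPA5, TRIB3 and CHAC1 are among the wide ones, and these genes also differed between replicates within every group, as described below. With the block their SE fell to 0.05, 0.07 and 0.11, and their adjusted p were 0.479, 0.249 and 0.819.

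**Figure D2:**
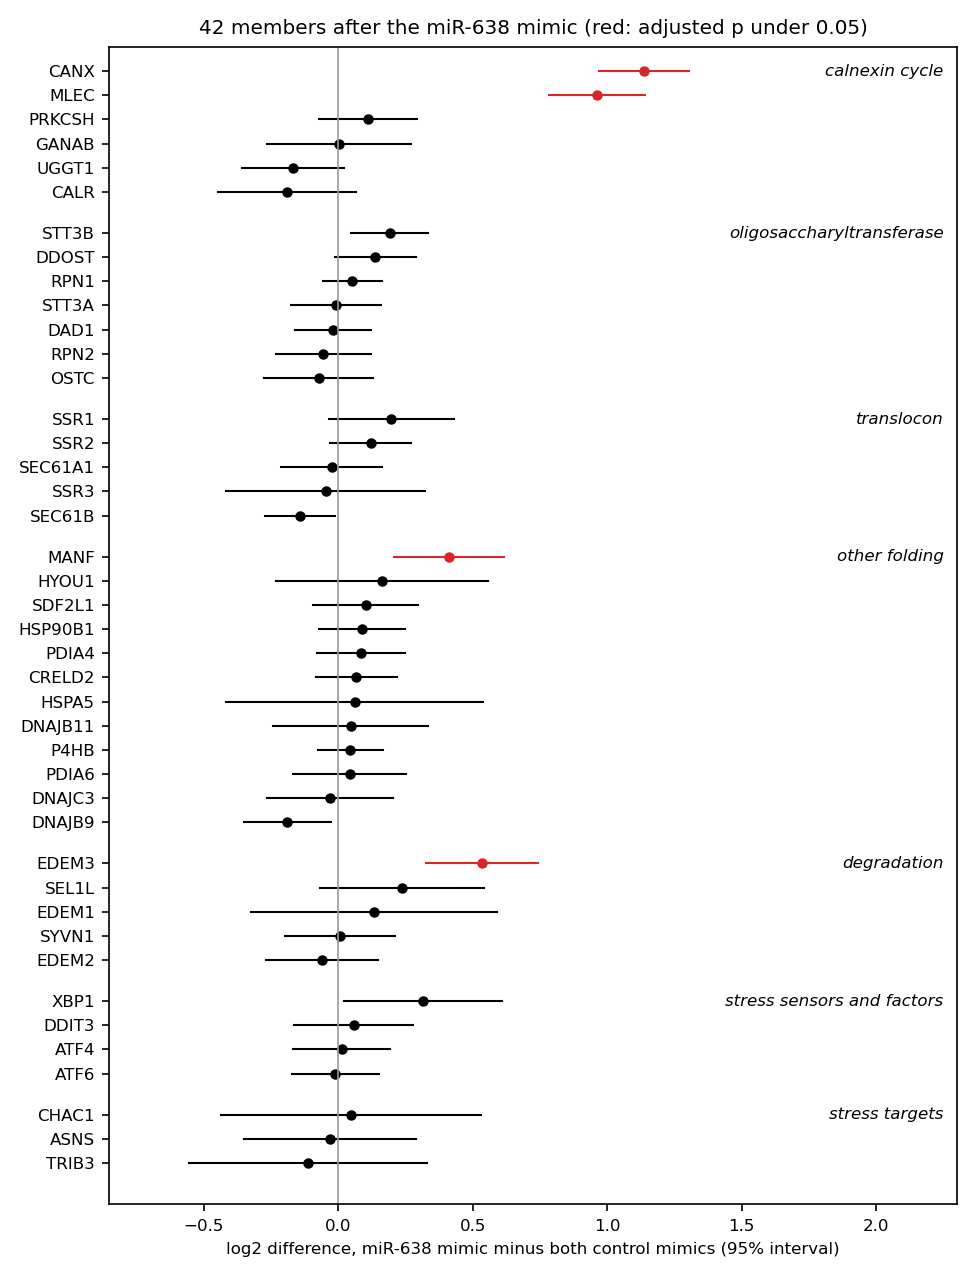
Log2 difference of each of the 42 tested members, miR-638 mimic minus the mean of both control mimics, with its 95% interval from the limma fit, grouped by role and ordered within a role; red marks an adjusted p under 0.05. CANX (1.14) and MLEC (0.96) stand at the right, EDEM3 (0.54) and MANF (0.41) follow, and the other 38 lie between -0.19 and 0.32.

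Among 104 other genes of the same pathways, 3 (2.88%) were higher and 0 lower after the miR-638 mimic, beside the 2.00% and 1.34% of all genes. Of 16 other folding genes, 16 other degradation genes, 19 other ATF4 targets and 27 other glycosylation genes, 0 passed the test in either direction against both controls. Of 9 other stress sensors and regulators 1 was higher, MBTPS2, which encodes the protease that releases ATF6 (0.44, SE 0.11, limma adjusted p = 0.0428). Of 17 other translocation genes 2 were higher: the signal peptidase subunit SPCS1 (0.35, SE 0.06, limma adjusted p = 0.00607) and the signal recognition particle receptor SRPRA (0.50, SE 0.12, limma adjusted p = 0.0413). Against NC1 alone SPCS1 and SRPRA differed by 0.06 and 0.13 (limma adjusted p = 0.845 and 0.852), and against NC2 alone by 0.63 and 0.87 (0.000174 and 0.00276); both were lower with NC2 than with NC1, by -0.57 and -0.74. MBTPS2 differed by 0.52 from NC1 alone (limma adjusted p = 0.0433) and by 0.36 from NC2 alone (0.103, and 0.00354 with the replicate block). Against NC1 alone 3 of the 104 were higher and 1 lower (228 and 128 of all 12646 genes), and against NC2 alone 6 and 2 (494 and 377). The folding gene SERP1 was 0.93 above NC1 (limma adjusted p = 0.00117) and TXNDC5 1.07 above NC2 (0.00277). These genes also differed between the controls, by 1.16 and -1.31 for NC2 against NC1. Against both controls with the replicate block, 16 of the 104 were higher and 7 lower (15.4% and 6.73%, beside 10.1% and 9.10% of all genes). In the order folding, degradation, ATF4 targets and glycosylation the block gave 4, 1, 2 and 1 higher and 0, 0, 4 and 2 lower, and it gave 1 higher and 1 lower of the sensors and regulators and 7 higher and 0 lower of the translocation genes.

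The ER stress element, CCAAT followed after any 9 bases by CCACG, is bound by ATF6 and XBP1 with NF-Y in chaperone promoters. It was searched on both strands in the 250 bases before each start in the RefSeq promoter table, which had an entry for 42 of the 45 members. The element stood before 7 of these 42 members (16.7%) and before 25 of all 27305 genes (0.092%). The list holds ER chaperones and stress genes by choice, so its higher share is no separate result. The 7 were CANX, CALR, HSPA5, HSP90B1, PDIA6, CRELD2 and XBP1. The windows of CANX and of HSPA5 are shown because both hold the element while only CANX passed the test; each is on GRCh38.p14 with the element in capitals, at chr5:179698763-179698811 on the plus strand and chr9:125241376-125241424 on the minus strand.
CANX: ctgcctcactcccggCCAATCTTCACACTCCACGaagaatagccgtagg
HSPA5: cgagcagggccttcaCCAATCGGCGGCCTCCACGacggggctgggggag
In CANX the element begins 151 or 189 bases before the start, depending on the transcript, and in HSPA5 66 bases before it. After the miR-638 mimic, CANX differed by 1.14 and the other 6 carriers by -0.19 (CALR), 0.04 (PDIA6), 0.06 (HSPA5), 0.07 (CRELD2), 0.09 (HSP90B1) and 0.32 (XBP1). The element was not found in these letters before MLEC, EDEM3 or MANF. The shorter element TGACGTGG stood before HYOU1 and SSR3 (0.78% of all genes) and TTGCATCA, the core of ATF4 response elements, before CHAC1 and HERPUD1 (0.967%).

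HSPA5 and 8 other members were separated by replicate number over all mimic groups, including both controls. The 12 mimic arrays fall into replicates 1 and 2 and replicates 3 and 4, and the labels do not say what sets these apart. The division was seen in the data, so the values are given with no test. HSPA5 read 10.76, 10.74, 10.09 and 10.16 with NC1, 10.95, 10.96, 10.21 and 10.28 with NC2, and 11.06, 10.87, 10.13 and 10.26 with miR-638. In each group the first 2 arrays were high and the last 2 low, by 0.70 on average (1.63-fold). CHAC1 was higher by 0.65, EDEM1, a degradation factor, by 0.64, TRIB3 by 0.63, the chaperone HYOU1 by 0.52, the translocon subunit SSR3 by 0.50, the amino acid enzyme ASNS by 0.43, the HSPA5 co-chaperone DNAJB11 by 0.38 and EDEM2 by 0.25. For these 9 of 42 members all 6 arrays of replicates 1 and 2 were above all 6 of replicates 3 and 4, and for 0 members all were below, against 10.4% above and 11.1% below among all genes. The other 33 overlapped, among them DDIT3 (0.21), HSP90B1 (0.09), SDF2L1 (0.09), DNAJB9 (-0.07) and CRELD2 (-0.09). Array medians of the interferon-stimulated list, each gene centred on its mean, ran the other way, from -1.57 to -0.96 in replicates 1 and 2 and from 0.30 to 2.18 in replicates 3 and 4. The part of either in the other was not tested.

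The miR-638 effect had the same sign in both pairs of replicates for the 4 called members. These members were called on the same arrays, so the shared sign was close to given and is no separate result. Within replicates 1 and 2 CANX rose by 1.27, MLEC by 1.08, EDEM3 by 0.50 and MANF by 0.57. Within replicates 3 and 4 they rose by 1.00, 0.84, 0.57 and 0.25. A test of the difference between the pairs called 64 of 12646 genes and 0 members. With so few calls among all genes, 0 is no result about the members. Largest among members were -0.33 for SDF2L1 (SE 0.12), -0.32 for MANF (SE 0.10) and -0.30 for XBP1 (SE 0.10), lower in replicates 3 and 4. Their limma adjusted p were 0.307, 0.176 and 0.229.

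**Figure D3:**
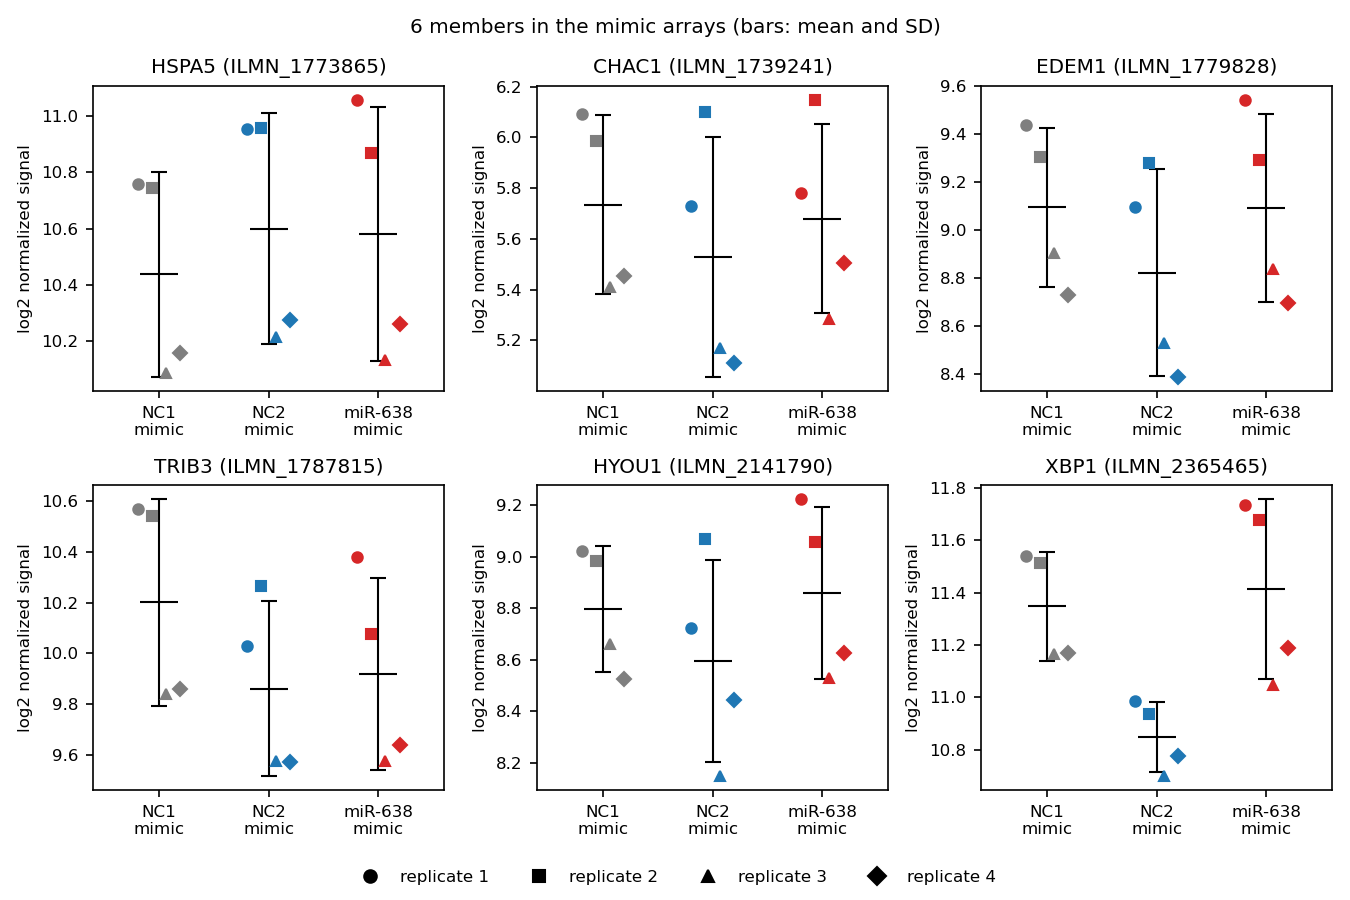
Log2 normalised signal of HSPA5, CHAC1, EDEM1, TRIB3, HYOU1 and XBP1 by mimic group; symbols are replicates, horizontal bars the mean and vertical bars the SD of 4 arrays. In each group replicates 1 and 2 (circles, squares) lie above replicates 3 and 4 (triangles, diamonds), and XBP1 is lower with NC2 in both pairs. Each panel has its own axis, which does not start at 0.

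The 2 non-targeting control mimics differed from each other in 4 of the 42 members, with 2 higher and 2 lower with NC2, against 5.13% and 4.95% of all genes (649 and 626; 166 and 685 under median scaling, where the median of all genes is -0.10 and not 0.01). The members' median was -0.07. ATF6, the sensor cleaved under stress, read 8.53, 8.44, 8.70 and 8.64 with NC1 and 9.13, 9.03, 9.21 and 9.17 with NC2. All NC2 arrays were above NC1, by 0.56 (SE 0.09, limma adjusted p = 0.00156). EDEM3, whose arrays are given above, was higher by 0.58 (SE 0.11, limma adjusted p = 0.00608). The calls of ATF6 and EDEM3 were lost under median scaling.

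STT3B, a catalytic subunit of the oligosaccharyltransferase that works after translation, read 9.81, 9.53, 9.67 and 9.66 with NC1 and 9.18, 9.13, 9.17 and 9.17 with NC2. All NC2 arrays were below NC1, by -0.50 (SE 0.08, limma adjusted p = 0.00132). DDOST, a subunit of the same complex, read 11.59, 11.55, 11.60 and 11.48 with NC1 and 11.28, 11.12, 11.30 and 11.28 with NC2. It was lower by -0.31 (SE 0.08, limma adjusted p = 0.0286), and the call was lost without NC1 replicate 1, 2 or 3 or NC2 replicate 1 or 2 (adjusted p up to 0.0842). With the replicate block 5 members were higher and 9 lower, against 16.7% and 16.2% of all genes. XBP1 was then among the lower (-0.50, adjusted p = 0.065 without and 1.13e-05 with the block), as was MLEC (-0.29, 0.0738 and 0.0059), and CANX was among the higher (0.26, 0.091 and 0.0161). HSPA5 and SEL1L were also called higher only with the block, and UGGT1, P4HB, TRIB3, EDEM1 and STT3A lower. The second MLEC probe gave -0.48 (limma adjusted p = 0.00448 without the block, in a fit of all probes). So CANX and MLEC lay on opposite sides between the controls, and both were higher with miR-638 than with either control.

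In RNA captured with biotinylated miR-638, MLEC was higher than in the mean of the control pulldowns, and CANX did not pass the test. MLEC read 11.59, 11.77 and 11.62 with NC1, 12.51, 12.63 and 12.30 with NC2, and 12.59, 12.37 and 12.50 with miR-638. The miR-638 arrays were above all NC1 arrays and overlapped NC2. The difference from both controls was 0.42 (1.33-fold, SE 0.08, limma adjusted p = 0.00517), and 0.41 on the second probe. It was 0.83 against NC1 alone and 0.01 against NC2 alone (95% interval -0.20 to 0.21 in a fit of all probes). CANX read 9.78, 9.69 and 9.91 with NC1, 9.37, 9.66 and 9.53 with NC2, and 9.77, 9.77 and 9.86 with miR-638. Its difference from both controls was 0.14 (95% interval -0.05 to 0.34, limma adjusted p = 0.338), and 0.10 on the second probe.

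Of the 42 members 1 was higher in the miR-638 pulldown, 3 were lower and 38 did not pass, against 6.55% higher and 4.60% lower among all genes. The members' median was -0.07 and that of all genes -0.01. STT3A, the catalytic subunit that works during translation, read 11.45, 11.59 and 11.43 with NC1, 11.61, 11.85 and 11.67 with NC2, and 11.42, 11.20 and 11.29 with miR-638. All miR-638 arrays were below the controls, by -0.30 (SE 0.08, limma adjusted p = 0.023), and the call was lost without miR-638 replicate 2 or 3 (adjusted p up to 0.138). HSP90B1, the ER Hsp90 chaperone GRP94, read 12.29, 12.53 and 12.43 with NC1, 12.50, 12.75 and 12.70 with NC2, and 12.32, 12.26 and 12.20 with miR-638. Its groups overlapped, and it differed by -0.28 (SE 0.08, limma adjusted p = 0.0361). P4HB, a protein disulfide isomerase, read 12.83, 13.01 and 12.77 with NC1, 13.16, 13.11 and 13.01 with NC2, and 12.77, 12.64 and 12.82 with miR-638, and differed by -0.24 (SE 0.07, limma adjusted p = 0.0419). The HSP90B1 call was lost without NC1 replicate 3, NC2 replicate 2 or 3, any miR-638 array or miR-17 replicate 3 (adjusted p up to 0.148). The P4HB call was lost without NC1 replicate 1, NC2 replicate 1 or 2, or any miR-638 or miR-17 array (up to 0.213), and none of the 4 calls held under median scaling or in the authors' values. Against NC1 alone STT3A, HSP90B1 and P4HB differed by -0.18, -0.16 and -0.13 (limma adjusted p = 0.19, 0.276 and 0.339), and against the columns named NC2 by -0.41, -0.39 and -0.35 (0.0107, 0.0158 and 0.0163). MANF, which rose after the miR-638 mimic, differed by 0.23 in the pulldown (limma adjusted p = 0.0679) and EDEM3 by 0.05 (95% interval -0.14 to 0.25).

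The miR-17 pulldown serves as a second microRNA captured the same way, and it shares its control arrays with the miR-638 pulldown. In it 3 members were higher and 1 lower than in the mean of both controls, against 8.27% and 6.03% of all genes. MLEC read 12.60, 12.69 and 12.78, a difference of 0.62 (SE 0.08, limma adjusted p = 0.000168). As with miR-638 these arrays were above all NC1 arrays; they overlapped NC2, and against NC2 alone the call was lost. HSP90B1 read 13.03, 12.83 and 12.87 and was above all controls, by 0.37 (SE 0.08, limma adjusted p = 0.00563; 0.0504 without miR-17 replicate 1). It differed by 0.49 from NC1 alone and by 0.26 from NC2 alone, where the call was lost (limma adjusted p = 0.0859). ATF6 read 8.73, 8.57 and 8.71 with NC1, 8.72, 8.87 and 8.69 with NC2, and 9.21, 9.07 and 9.16 with miR-17. It was above all controls, by 0.43 (SE 0.09, limma adjusted p = 0.00679). MANF read 11.97, 11.78 and 11.97 with NC1, 11.88, 11.91 and 12.03 with NC2, and 11.50, 11.63 and 11.56 with miR-17. It was below all controls, by -0.36 (SE 0.08, limma adjusted p = 0.00676). The miR-17 calls of HSP90B1, ATF6 and MANF were lost under median scaling and in the authors' values, and that of MLEC in the authors' values.

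Compared directly, the miR-638 and miR-17 pulldowns differed in 5 members, with 1 higher and 4 lower with miR-638, against 3.29% and 5.14% of all genes. MANF read 12.15, 12.01 and 12.30 with miR-638 and was higher by 0.59 (SE 0.09, limma adjusted p = 0.000717). HSP90B1 was lower by -0.65 (SE 0.09, limma adjusted p = 0.000352). ATF6 read 8.71, 8.45 and 8.66 with miR-638 and was lower by -0.54 (SE 0.11, limma adjusted p = 0.00553). STT3A was lower by -0.38 (SE 0.09, limma adjusted p = 0.0139), with 11.72, 11.70 and 11.63 in the miR-17 arrays. DAD1, a small subunit of the oligosaccharyltransferase, was lower by -0.32 (limma adjusted p = 0.015). In all 5 the miR-638 and miR-17 arrays did not overlap. The STT3A call was lost without miR-638 replicate 2 or 3 or miR-17 replicate 1 or 2, and the DAD1 call without miR-638 replicate 1 or 2 or miR-17 replicate 1 (adjusted p up to 0.078 and 0.0763). Under median scaling the calls of ATF6, STT3A and DAD1 were lost, and in the authors' values all 5 were. MLEC and CANX differed between the microRNAs by -0.20 (95% interval -0.40 to -0.00, limma adjusted p = 0.232) and 0.12 (-0.11 to 0.34, limma adjusted p = 0.602).

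**Figure D4:**
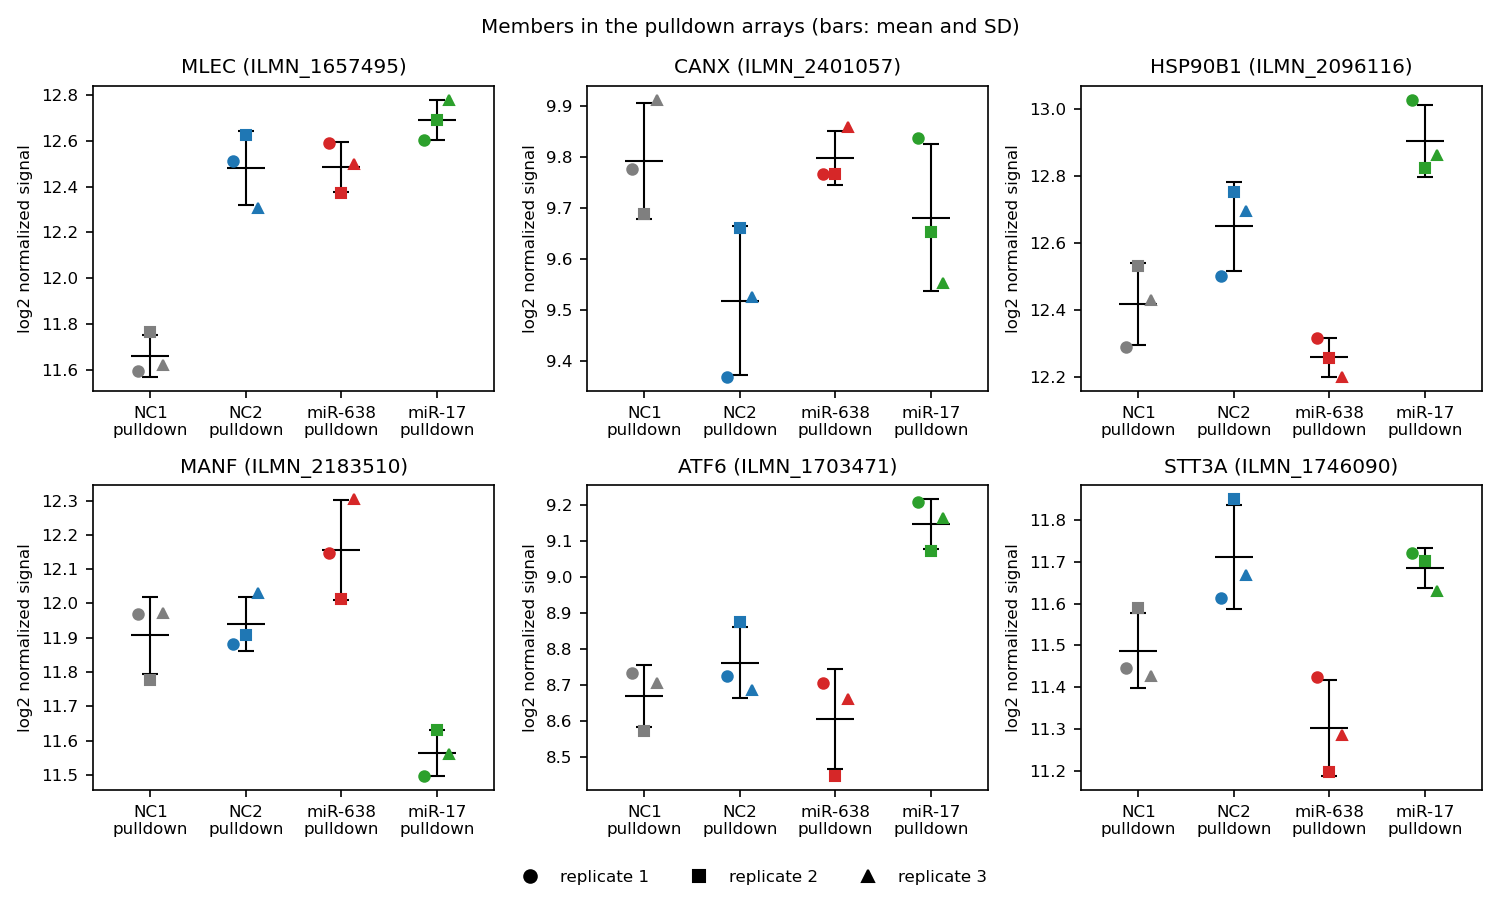
Log2 normalised signal of MLEC, CANX, HSP90B1, MANF, ATF6 and STT3A in captured RNA by pulldown group; symbols are replicates, horizontal bars the mean and vertical bars the SD of 3 arrays. MLEC is low with NC1 only, HSP90B1 and ATF6 are high and MANF low with miR-17, and STT3A is low with miR-638. NC1 and NC2 follow the names in the signal table, and each panel has its own axis, which does not start at 0.

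Between the 2 control pulldowns, 6 members were higher in the columns named NC2 and 0 lower, against 3.06% and 1.63% of all genes (401 and 213; 157 and 20 under median scaling). The members' median was 0.12 and that of all genes -0.01, and 30 of 42 differences were positive. UGGT1 read 7.85, 6.62 and 7.85 with NC1 and 8.71, 8.14 and 8.72 with NC2. All NC2 arrays were above NC1, by 1.08 (SE 0.28, limma adjusted p = 0.0388), and NC1 replicate 2 was low. Without that array the difference was 0.67 (limma adjusted p = 0.0511), and the call was also lost without NC2 replicate 1 or 3 or any miR-638 or miR-17 array (up to 0.147). MLEC was higher by 0.82 (SE 0.09, limma adjusted p = 0.000163) and by 0.96 on its second probe. CHAC1 read 6.93, 6.45 and 6.55 with NC1 and 7.45, 7.12 and 7.21 with NC2. It was higher by 0.62 (SE 0.16, limma adjusted p = 0.0475), and the call was lost with any single array left out other than NC1 replicate 1 (adjusted p up to 0.117).

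The other 3 calls between the control pulldowns were SSR1 (0.56), XBP1 (0.49) and DDOST (0.41), with limma adjusted p of 0.00355, 0.00386 and 0.0129. The DDOST call was lost without NC1 or NC2 replicate 3 (adjusted p up to 0.0582). Under median scaling the calls of SSR1, XBP1, DDOST and CHAC1 were lost. All 6 calls have the opposite sign in the authors' value table, where the column names are exchanged. Of the 13 tested interferon-stimulated genes 13 were higher in the same NC2 columns (median 1.16), beside 3.06% of all genes. Against the mean of both controls 13 were lower with miR-638 and 12 with miR-17 (medians -1.19 and -0.88), beside 4.60% and 6.03% of all genes. Against NC1 alone fewer were called lower with either microRNA. MX1 differed by -0.97 with miR-638 and -0.73 with miR-17 from NC1, and by -2.61 and -2.37 from the columns named NC2. The part of these interferon-stimulated differences in the member values was not tested. In total RNA the control mimics, on other arrays, gave XBP1 -0.50, DDOST -0.31, MLEC -0.29, UGGT1 -0.30, CHAC1 -0.21 and SSR1 -0.15 for NC2 against NC1. Of these DDOST passed the test without the block, and with it XBP1, MLEC and UGGT1 passed too. XBP1 was read there on another probe than in the pulldown. The interferon-stimulated list had array medians of 0.30 and 0.50 with NC1 and 2.18 and 1.99 with NC2 in mimic replicates 3 and 4, and of -1.40 and -1.57 with NC1 and -1.25 and -1.25 with NC2 in replicates 1 and 2.

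**Figure D5:**
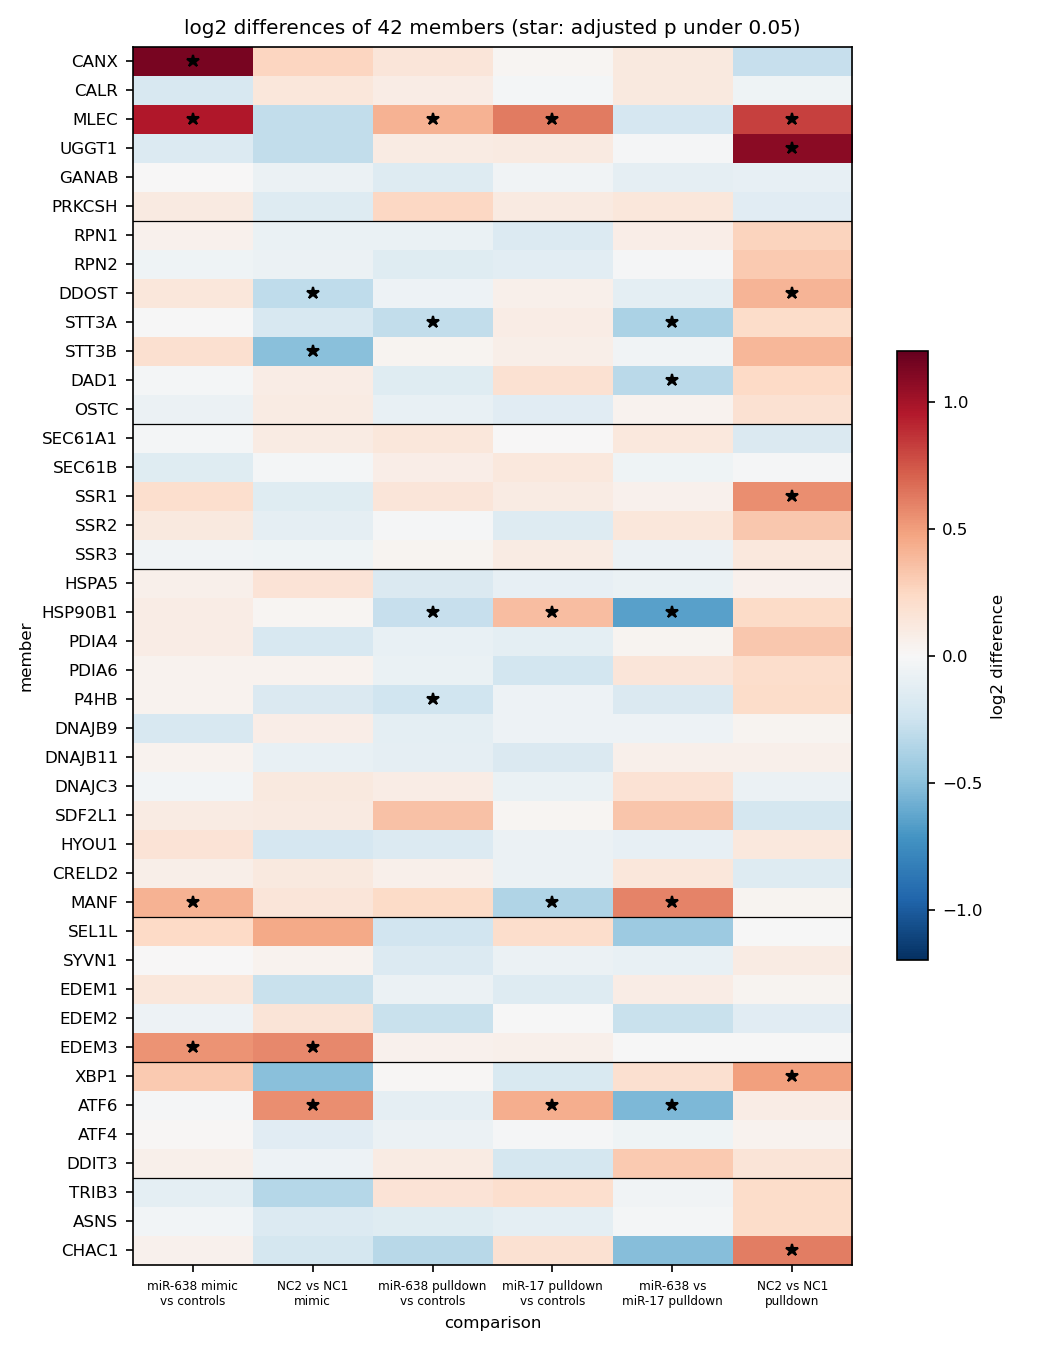
Log2 differences of the 42 tested members (rows, grouped by role) in 6 comparisons (columns); red is higher and blue lower in the first-named group, and stars mark a limma adjusted p under 0.05. The pair of dark red cells for CANX and MLEC after the miR-638 mimic has no counterpart of that size among the other members in that column. Columns that share control arrays are not independent, and the last column has the opposite direction under the names of the authors' value table.

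Of 105 other pathway genes 3 (2.86%) were higher and 6 (5.71%) lower in the miR-638 pulldown than in the mean of both controls, beside 6.55% and 4.60% of all genes. In the miR-17 pulldown 6 (5.71%) were higher and 5 (4.76%) lower, beside 8.27% and 6.03%. The miR-638 pulldown gave 1 higher and 1 lower of 17 other folding genes (ERO1A 0.68, FKBP14 -1.13), 0 of 16 degradation genes, and 0 higher and 1 lower of 9 sensors and regulators (EIF2AK3, which encodes PERK, -0.44). It gave 0 higher and 1 lower of 19 ATF4 targets (STC2 -0.43), 0 higher and 2 lower of 27 glycosylation genes (MAGT1 -0.78, ALG8 -0.41), and 2 higher and 1 lower of 17 translocation genes (SRPRA 0.26, SRPRB 0.25, SEC11A -0.25; the SRPRB call was lost with the replicate block, adjusted p = 0.0559). The miR-17 pulldown gave, in the same order, 3 higher and 1 lower, 0 higher and 1 lower, 0 and 0, 0 higher and 2 lower, 2 higher and 1 lower, and 1 higher and 0 lower. In the miR-638 pulldown ERO1A, SRPRA and SRPRB were 1.25, 0.59 and 0.69 above NC1 alone, and none of them was called against NC2 alone. Between the control pulldowns they were higher in the columns named NC2, by 1.13, 0.67 and 0.88. Of the genes called lower with miR-638, only STC2 was called against each control alone.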

How the data were processed

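Each array's probe signal was deposited by the authors as an intensity with a detection p-value per probe, not normalised, and a second table of theirs holds values on the log2 scale. The labels name an Illumina labelling kit and the probe names are Illumina's, while the design text names another maker. The authors' normalisation is not given in the sources used here. Within each experiment, neqc in limma 3.58.1 (R 4.3.3) corrected background from the detection p-values, added an offset of 16, quantile-normalised and took log2. A probe was kept where 4 or more mimic arrays, or 3 or more pulldown arrays, detected it at p below 0.05. Gene names came from the platform's table: 30113 probes had 1 symbol, 8 several and 17202 none listed. The probe of highest mean stood for a gene; extra CANX and MLEC probes were read from a fit of all 22469 or 23742 probes. All groups of an experiment entered 1 fit (lmFit, eBayes with trend, two-sided, Benjamini-Hochberg over all genes, threshold 0.05). The fit was also run on simulated data whose arrays varied independently, so that run cannot speak to the division of the mimic replicates. No 2 of 24 arrays were identical.

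Same-numbered mimic replicates deviated together (correlations 0.68 to 0.768), as did 1 with 2 and 3 with 4, so a fit with the number as a block was also run. For miR-638 against both control mimics and for NC2 against NC1 mimic, the members whose call it changed are named. Against single control mimics it is given only for EDEM3, MANF and MBTPS2, and it changed other calls there. Per-array values were given for CANX, MLEC, members called after the miR-638 mimic and, elsewhere, the 3 largest called changes each way. Members and lists were chosen with earlier results of these data known. Alternatives were the background correction, scaling, filter, the authors' log2 values, array weights, single controls, pairs of replicates and each array left out. Figures used matplotlib 3.10.9.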

Additional observations from a re-analysis of the deposited data

Results flagged for a closer look

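Of 45 groups of 4 mimic arrays tested over the 15 members with a call, 3 held an array far from the other 3 by Dixon's criterion, which chance alone meets in about 1 of 20 groups. All 3 were oligosaccharyltransferase subunits with NC2: DAD1 was low in replicate 3 (12.14, against 12.35 for the nearest array), DDOST was low in replicate 2 (11.12 against 11.28) and STT3B was low in replicate 2 (9.13 against 9.17). The STT3B group was tight, and its call did not rest on that array.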

How the results depend on the processing

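After the miR-638 mimic CANX and MLEC passed the test in every setting run. In place of 4 members, 9 were called with the replicate block, 7 within replicates 1 and 2, and 2 to 4 with single arrays left out. For NC2 against NC1 mimic (4) the block gave 14, each pair of replicates 8, median scaling 2 and single arrays left out 3 to 6. Median scaling gave 0, 1, 2 and 2 members for the miR-638 pulldown (4), the miR-17 pulldown (4), miR-638 against miR-17 (5) and NC2 against NC1 pulldown (6), and the authors' values gave 0 in all 4 of these. Array weights gave 8, 7 and 8 in the first 3. The miR-638 pulldown gave 2 members with no detection filter, and the miR-17 pulldown 7 against NC1 alone. With single arrays left out the pulldown counts ran from 1 to 4, 3 to 5, 3 to 7 and 3 to 6 in that order. In the authors' values the NC2 against NC1 pulldown difference was -0.69 for MLEC, -0.20 for DDOST, -0.70 for CHAC1, -0.65 for SSR1, -0.51 for XBP1 and -1.10 for UGGT1, where the exchanged column names set the sign. The cause of the other changes was not tested. Pulldown replicate numbers did not pair (same-number correlations -0.326 to 0.555), and among the members in the 4 pulldown comparisons above the replicate block there changed only the call of P4HB (adjusted p = 0.0568), which it ended. It also ended calls among the other pathway genes, SRPRB with miR-638 (0.0559) and MTHFD2 with miR-17 (0.0587) among them, and against single controls those of the members TRIB3 (miR-638 against NC1, 0.0602) and DAD1 (against NC2, 0.0643). In all, 366 of the settings run over single named genes kept the call, 110 lost it and 6 reversed. Signals near background limit dim members, and members with no named or detected probe could not be tested.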
